A study of Mus musculus with 6 samples.

Results

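The 9 genes described here were Mfn1, Mfn2 and Opa1 (mitochondrial fusion), Dnm1l, Fis1 and Mff (mitochondrial fission) and Tfam, Polg and Ssbp1 (upkeep of mitochondrial DNA). They were taken by symbol from a deposited expression table of 24255 genes, and all 9 were found in it once. The table held FPKM values (fragments per kilobase of transcript scaled to the mapped fragments of the library) of fully-grown oocytes (FGOs), the large prophase-arrested oocytes that still have an intact nucleus, the germinal vesicle (GV). FGOs were compared between wild-type (WT) mice and mice homozygous for a knockout-first allele of Lsm14b, Lsm14b tm1a(KOMP)Mbp (Lsm14b-KO), to learn how loss of the oocyte RNA-binding protein LSM14B altered the transcriptome. Each genotype had 3 libraries of 20 oocytes, and all females of both genotypes had received 5 IU PMSG, a gonadotropin that drives follicle growth, 46 h before collection.

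The allele is a reporter-tagged insertion carried by every cell of the mouse, on a C57BL/6J background, so the oocytes had grown without LSM14B. Whether the 3 libraries of a genotype came from different females was not stated, and p-values measure the spread between these libraries only. The age of the females was not given in the sources used here. In bulk libraries, a change in the proportion of cells and a change in RNA per cell cannot be told apart.

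Mitochondria constantly fuse and divide. The mitofusins MFN1 and MFN2 join outer membranes and OPA1 joins inner membranes, while the dynamin-like GTPase DRP1, the product of Dnm1l, is brought to the surface by receptors such as MFF and FIS1 and pinches the organelle apart. TFAM packages mitochondrial DNA and starts its transcription, POLG copies it, and SSBP1 coats the single strands exposed during copying. Oocytes carry far more mitochondria and mitochondrial DNA than somatic cells, keep the mitochondria small and round, and pass them to the embryo.

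The letters shared by the members' promoters are given before the values. The windows came from RefSeq on build GRCm38.p6 and ran from 250 bases before to 50 bases after each annotated transcription start. All 9 members had at least 1 window. The ETS core CCGGAAG, the letters recognised by GABPA and related factors, was searched on both strands. It was found in 6 of the 9 members, compared with 9.93% of all 27025 genes with a window and 21.3% of the 4807 tested genes with one. The matches are shown because they are the feature most members share, with the core in capitals on the gene's own strand.
Mfn1: gatccgaagcgCCGGAAGtagccgcccct
Dnm1l: gctgtcgcttcCTTCCGGccgctgaggac
Fis1: ggaggcaccacCCGGAAGttcaggcttcc
Tfam: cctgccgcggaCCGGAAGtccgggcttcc
Polg: gaggacctcacCCGGAAGtccctctgcac
Ssbp1: ggctccgtgcgCCGGAAGcgagccgctgg

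These stretches lie at chr3:32529427-32529455 (plus strand) for Mfn1, chr16:16358546-16358574 (minus strand) for Dnm1l, chr5:136953246-136953274 (plus strand) for Fis1, chr10:71238074-71238102 (minus strand) for Tfam, chr7:79466294-79466322 (minus strand) for Polg and chr6:40471410-40471438 (plus strand) for Ssbp1. The core began 44, 18, 47, 38 and 47 bases before the start in Mfn1, Fis1, Tfam, Polg and Ssbp1, and at base 13 counted from the start, on the opposite strand, in Dnm1l. A further window of Fis1 held the core as well. The NRF1 motif, searched on both strands, was found in Opa1 alone among the members, and in 5.19% of all genes and 12.8% of tested genes with a window. It is shown with its letters in capitals, at chr16:29579265-29579294 (plus strand), and it did not overlap an ETS core.
Opa1: gtggctccccGCGCATGCGCatgtcatccg

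Members with the core included genes that were higher, lower and without a called difference in Lsm14b-KO FGOs, as given below. A match is a run of letters and was not measured as a binding site.

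Transcripts were also searched for CCTCTC, the DNA spelling of a hexamer associated with LSM14B-bound RNA. Among the members, 4 of 9 carried it in the transcript used here, against 51.7% of 6318 tested genes with a transcript. Mfn2 had 6 copies and Polg 2, while Dnm1l and Mff had 1 each. The Dnm1l and Mff sites are shown because these fission genes had the highest levels among the carriers, with the hexamer in capitals. The Dnm1l site lies in the coding sequence of exon 2 of 19 (chr16:16346047-16346076, minus strand), and the Mff site in the 5′ UTR, in exon 1 of 9 (chr1:82725041-82725070, plus strand), both on GRCm38.
Dnm1l: gtcacccggagaCCTCTCattctgcagcta
Mff: gcgggcggcgacCCTCTCtccggggactct

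The libraries differed in depth along with genotype. Relative to the first WT library (WT1), the value of 1 fragment in the low FPKM values gave a depth of 1.03 to 1.14 in WT2 and WT3 and of 1.33, 1.95 and 2.18 in the Lsm14b-KO libraries KO1, KO2 and KO3. The sum of FPKM over all genes differed too, at 1141324 to 1244182 in WT and 1029728, 564671 and 676656 in KO1, KO2 and KO3. Its part in the differences between genotypes was not tested. Library KO1 stood closer to WT (r of log2 values across genes 0.952 to 0.954) than KO2 (0.867 to 0.890) or KO3 (0.917 to 0.929). Lsm14b itself was at 2.77, 3.98 and 1.72 FPKM in WT and was listed at 0, 0 and 0.102 in Lsm14b-KO, so each library matched its label. All 10 oocyte markers were expressed, with sums, carried mainly by Oosp1 and Gdf9, of 6811 to 8746 FPKM in WT and 6500 to 8464 in Lsm14b-KO. Within the list, Ddx4 (0.388 to 0.9 FPKM in WT and 2.86 to 3.49 in Lsm14b-KO, adjusted p = 0.005, limma) and Kit (3.46 to 4.58 and 6.73 to 10.6, adjusted p = 0.0441) were higher, and Dazl (128 to 155 and 34.4 to 57.2, adjusted p = 0.0131) was lower. The 12 cumulus and granulosa cell markers, from the somatic cells around the oocyte, summed to 9.73 to 13.6 FPKM in WT and 6.14 to 10.2 in Lsm14b-KO. Amh, Foxl2, Inhba and Cyp11a1 were at 0 in every library, and Cyp19a1 made up most of the sum in WT and was lower in Lsm14b-KO (adjusted p = 0.0426, limma). Other markers of the list lay the other way without a call, with Fshr at 0.349 to 1.68 FPKM in WT and 1.82 to 2.07 in Lsm14b-KO (adjusted p = 0.0923, limma), Inha not called (adjusted p = 0.301), and Kitl, not tested, at 0.097 to 0.383 and 0.402 to 0.559. Their part in the results was not tested. The 6 red blood cell markers measured were at 0, and only Cd68 of 5 white blood cell markers had any value.

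**Figure D1:**
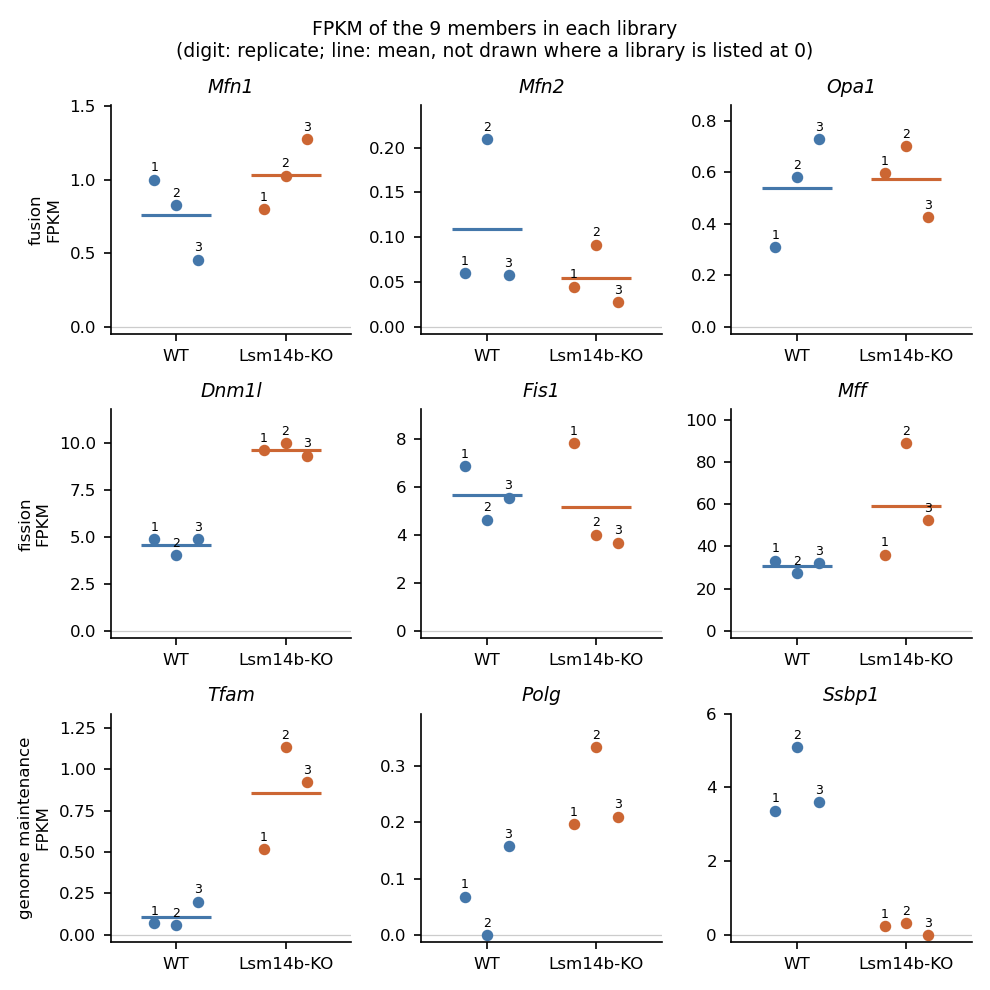
FPKM (y axis, starting at 0 and scaled to each gene) of the 9 members in the 3 WT (blue) and 3 Lsm14b-KO (orange) libraries, with a point for each library and a line at the group mean where no library was listed at 0. Dnm1l, Mff, Tfam and Polg lay higher in every Lsm14b-KO library than in any WT library, Ssbp1 lay lower, and Mfn1, Mfn2, Opa1 and Fis1 overlapped.

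Dnm1l and Tfam were called higher and Ssbp1 was called lower in Lsm14b-KO FGOs, and no fusion gene was called. The call of Tfam lay just under the threshold (adjusted p = 0.0455, limma) and was lost without the filter on low values. The test was limma with Benjamini-Hochberg adjustment over all 6398 genes that reached 1 FPKM in at least 1 library, on log2(FPKM + 1). That scale understates the change of low genes. Of the 9 members, 6 were tested and 3 passed an adjusted p of 0.05. Of all tested genes, 21.6% passed, 6.38% as higher and 15.2% as lower in Lsm14b-KO. Tfam entered the test only through an Lsm14b-KO library and Ssbp1 only through WT libraries, so whether each was tested depended on the genotype in which it was high, and the count of 3 is not evidence about the members. Among the 4 members that reached 1 FPKM in both genotypes, Dnm1l was called and Mfn1, Fis1 and Mff were not. The matching share of all genes was not computed, so no more is drawn from this. Of the 6 tested members, Dnm1l, Mff, Tfam and Ssbp1 had ranges that did not overlap between genotypes, as had 45% of all tested genes. The limit given for Tfam and Ssbp1 applies here too. The ranges of Polg, which was not tested, did not overlap either.

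Levels per transcript length spanned a wide range in WT. Mff was the highest member, and its lowest WT library lay above the highest value of any other. Fis1, Dnm1l and Ssbp1 followed, with WT ranges of 4.64 to 6.88, 4.04 to 4.87 and 3.37 to 5.09 FPKM, and neighbours in this order overlapped. Mfn1 (0.458 to 1.00) and Opa1 (0.309 to 0.729) came next and overlapped too. Mfn2, Tfam and Polg were lowest, at 0.209 FPKM or less in every WT library, and their ranges overlapped. In Lsm14b-KO, Dnm1l lay above Fis1 without overlap, Tfam overlapped Mfn1 and Opa1, and Ssbp1 lay below those 3 genes and overlapped Polg. Mfn2 was then at 0.0918 FPKM or less.

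The fusion genes were scarce in both genotypes. Mfn1 (chr3:32529465-32579239, plus strand) encodes an outer-membrane GTPase that tethers neighbouring mitochondria. It was at 1.00, 0.826 and 0.458 FPKM in WT and 0.798, 1.03 and 1.28 in Lsm14b-KO. The ranges overlapped, and the fitted difference of 0.21 on the log2 scale (SE 0.21, adjusted p = 0.461, limma) had a 95% interval from -0.275 to 0.701.

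Mfn2 (chr4:147873599-147904704, minus strand), the other mitofusin, also links mitochondria to the endoplasmic reticulum. It was at 0.0596, 0.209 and 0.0579 FPKM in WT and 0.0449, 0.0918 and 0.0275 in Lsm14b-KO. These values stood for about 1, 4 and 1 fragments in WT and 1, 3 and 1 in Lsm14b-KO. With 6 fragments in all WT libraries against 5 in all Lsm14b-KO libraries, the ratio of Lsm14b-KO to WT per unit of depth was 0.485, with a 95% exact interval from 0.117 to 1.91. This interval, like those of the other members, covers counting error only, since amplified fragments are not independent molecules, and a change of Mfn2 within it was not detectable at this depth.

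Opa1 (chr16:29579334-29654884, plus strand) encodes the inner-membrane fusion GTPase, which also shapes the cristae. It was at 0.309, 0.581 and 0.729 FPKM in WT and 0.598, 0.702 and 0.427 in Lsm14b-KO. The groups overlapped and neither reached 1 FPKM, so the gene was not tested. The log2 difference was 0.04, with SDs between libraries of 0.21 in WT and 0.13 in Lsm14b-KO. Its 41 WT and 73 Lsm14b-KO fragments gave a ratio per unit of depth of 1.04 (95% exact interval 0.697 to 1.56).

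**Figure D2:**
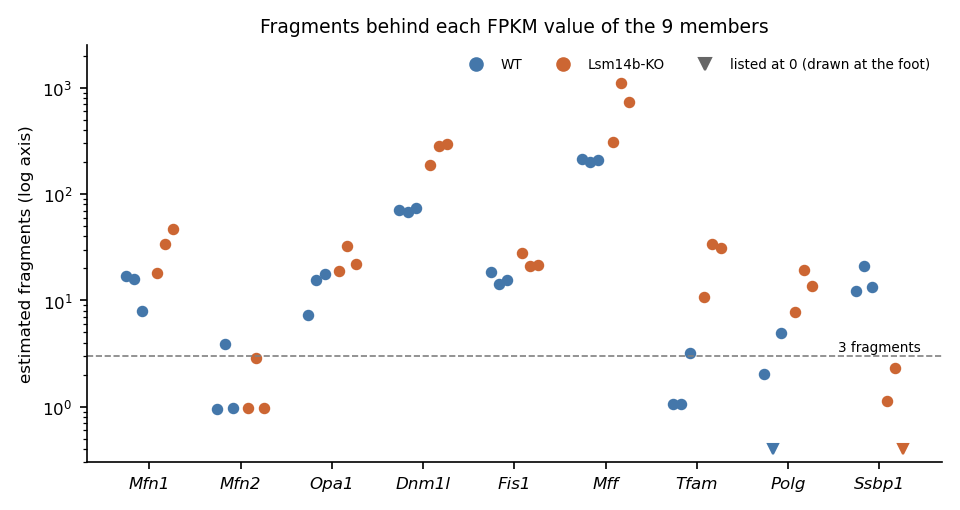
Fragments estimated behind each FPKM value (y axis, logarithmic) for the 9 members in the WT (blue) and Lsm14b-KO (orange) libraries, with libraries listed at 0 drawn as triangles at the foot and a dashed line at 3 fragments. Mff and Dnm1l rested on at least 67.5 fragments in every library, while Mfn2, Tfam in WT, Polg in WT and Ssbp1 in Lsm14b-KO rested on 5 or fewer in each library.

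Among the fission genes Dnm1l was higher, and Mff and Fis1 were not called. Dnm1l (chr16:16312230-16358959, minus strand) was at 4.87, 4.04 and 4.86 FPKM in WT and 9.60, 9.97 and 9.32 in Lsm14b-KO. All 3 Lsm14b-KO libraries lay close together and above every WT library, with means of 4.59 ± 0.478 in WT and 9.63 ± 0.327 in Lsm14b-KO (SD, n = 3). The ratio of the means was 2.10, and the fitted log2 difference was 0.93 (SE 0.21, adjusted p = 0.0199, limma). The 212 WT and 768 Lsm14b-KO fragments gave a ratio per unit of depth of 2.11 (95% exact interval 1.81 to 2.47). The direction held in all 17 alternative settings (other pseudocounts, filters, scalings and variance models, and omission of each library), but the call was lost when WT1, WT2, WT3 or KO3 was left out (adjusted p = 0.0787, 0.0992, 0.0656 and 0.0802). An antisense gene, Gm49521, overlaps Dnm1l, and without strand information their reads cannot be told apart.

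Mff (chr1:82724890-82752394, plus strand) encodes the main receptor of DRP1 on the outer membrane. It was at 33.2, 27.2 and 32 FPKM in WT and 36.1, 88.8 and 52.4 in Lsm14b-KO. The groups did not overlap, but KO1 lay just above WT while KO2 was the highest by far. The fitted log2 difference was 0.83 (SE 0.36, adjusted p = 0.131, limma), with a 95% interval from -0.012 to 1.67. Without KO1 it was 1.13 (adjusted p = 0.00887, limma). In that setting 2952 of 6280 tested genes were called, against 1383 of 6398 in the main fit. The call of Mff there is therefore not evidence particular to Mff. KO1 was also the Lsm14b-KO library most like WT across all genes, and its part in the result of Mff was not tested beyond this omission. C430014B12Rik lies on the opposite strand within the Mff locus.

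Fis1 (chr5:136953275-136966234, plus strand) encodes a small outer-membrane adaptor. It was at 6.88, 4.64 and 5.56 FPKM in WT and 7.83, 4.02 and 3.69 in Lsm14b-KO. KO1 was the highest library of all and the other Lsm14b-KO libraries were the lowest, so the groups overlapped. The difference was -0.16 on the log2 scale (SE 0.30, adjusted p = 0.693, limma; 95% interval -0.847 to 0.522), and it turned positive under 3 other scalings or corrections and without KO3.

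Balance between members was compared within each library, which removes any scaling common to all genes. Mff over Fis1 was 4.83, 5.87 and 5.75 in WT and 4.61, 22.1 and 14.2 in Lsm14b-KO, a 2.07-fold difference in geometric means (two-sided exact permutation p = 0.40). Dnm1l over Opa1 was 15.8, 6.96 and 6.67 in WT and 16.0, 14.2 and 21.8 in Lsm14b-KO, a 1.89-fold difference (exact permutation p = 0.20). Dnm1l over Mff was 0.147, 0.148 and 0.152 in WT, nearly the same in each library, and 0.266, 0.112 and 0.178 in Lsm14b-KO (exact permutation p = 0.70). Mfn1 over Mfn2 differed 2.60-fold (exact permutation p = 0.20) and rested on the few Mfn2 fragments given above. After Benjamini-Hochberg adjustment over these 4 ratios the p-values were 0.40 to 0.70, and 3 libraries against 3 cannot give a two-sided p below 0.10.

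Of the genome maintenance genes, Ssbp1 was called lower and Tfam, on few WT fragments, was called higher in Lsm14b-KO. Polg was too scarce to be tested. Ssbp1 (chr6:40471352-40484700, plus strand), the single-stranded DNA-binding protein of mitochondria, was at 3.37, 5.09 and 3.6 FPKM in WT and 0.236, 0.326 and 0 in Lsm14b-KO. Every Lsm14b-KO library lay far below the lowest WT library. The values stood for about 12, 21 and 13 fragments in WT and 1, 2 and 0 in Lsm14b-KO. The fitted log2 difference was -2.07 (SE 0.22, adjusted p = 0.00159, limma). Per unit of depth, WT had 26.9 times the fragments of Lsm14b-KO, with a 95% exact interval from 8.67 to 135. The call held in all 17 alternative settings, with adjusted p-values from 0.00029 to 0.0167, and without KO3, the library listed at 0, the difference was -1.96. Ssbp1 reached 1 FPKM in WT only, so the settings with a filter share that way of entering the test. Without the filter the adjusted p was 0.00803 (limma). Ssbp1 has a processed pseudogene, Gm12115, identical at 97.8% of 447 aligned bases, and reads shared with it may have been split or lost in counting.

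Tfam (chr10:71225464-71238280, minus strand) was at 0.0689, 0.0604 and 0.201 FPKM in WT and 0.519, 1.13 and 0.921 in Lsm14b-KO. The lowest Lsm14b-KO library lay well above the highest WT library. About 1, 1 and 3 fragments lay behind the WT values and 11, 34 and 31 behind those of Lsm14b-KO. The ratio per unit of depth was 8.84 (95% exact interval 3.63 to 28.0), while on the log2(FPKM + 1) scale the fitted difference was 0.73 (SE 0.21, adjusted p = 0.0455, limma). The direction held in the 15 alternatives that tested Tfam, and 9 of them put the adjusted p above 0.05, up to 0.155 without KO3. Without the filter on low values, where entry did not depend on an Lsm14b-KO library reaching 1 FPKM, the adjusted p was 0.0595 (limma). Without KO2, the only library above 1 FPKM, or with a filter of 1 FPKM in 3 libraries, Tfam was not tested.

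Polg (chr7:79446231-79466362, minus strand), the catalytic subunit of the mitochondrial DNA polymerase, was at 0.0676, 0 and 0.158 FPKM in WT and 0.197, 0.333 and 0.210 in Lsm14b-KO. Each Lsm14b-KO library lay above each WT library, but no library reached 1 FPKM and the gene was not tested. Without the filter on low values, the log2 difference was 0.21 (adjusted p = 0.183, limma). The 7 WT and 41 Lsm14b-KO fragments gave a ratio per unit of depth of 3.41 (95% exact interval 1.51 to 9). Polg shares 401 bases with the overlapping gene Fanci on the other strand, and reads in that stretch cannot be told apart without strand information.

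Tfam and Polg, which share the copying and packaging of mitochondrial DNA with Ssbp1, lay on the opposite side of WT from it. Tfam over Polg was 1.02 and 1.27 in WT1 and WT3 and 2.64, 3.4 and 4.39 in Lsm14b-KO. Ssbp1 over Polg was 49.8 and 22.8 in WT1 and WT3 and 1.20, 0.979 and 0 in Lsm14b-KO. Neither ratio could be formed in WT2, where Polg was listed at 0, and no fold or test is given for them. Tfam over Polg in WT1 and WT3 rested on about 1 and 3 fragments of Tfam and 2 and 5 of Polg. Ssbp1 over Polg in Lsm14b-KO rested on about 1, 2 and 0 fragments of Ssbp1.

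Transcript length differed along with direction. Across all tested genes with a transcript, the median length was 2963 bases for genes called higher and 1520 for genes called lower, against 2047 for all. The transcripts of Dnm1l (3966 bases) and Tfam (4167) were longer than 82.7% and 84.6% of tested genes, and that of Ssbp1 (1188) was longer than 24.2%. With a correction for length and GC content in each library, the difference was 0.92 for Dnm1l (adjusted p = 0.0144, limma), -1.55 for Ssbp1 (adjusted p = 0.00836) and 0.56 for Tfam (adjusted p = 0.0644).

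Other genes of the same processes were taken from 8 lists, with 81 genes in all. The table held 80 of them, and 37 were tested. Of these, 3 were higher, 6 were lower and 28 were not called, or 24.3% called against 21.6% of all tested genes. The lower genes included Mterf1a and Mterf1b, near-identical copies that do not count as separate observations. They also included Mul1 and Endog, which reached 1 FPKM in WT only, so the 24.3% is not evidence about the lists. The median log2 difference of the 37 genes was 0.21, against -0.075 over all tested genes. Mief1, Lig3, Clpx, Clpp and Tk2 reached 1 FPKM in Lsm14b-KO only, and each had a positive difference. The median is therefore not evidence about the lists either.

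**Figure D3:**
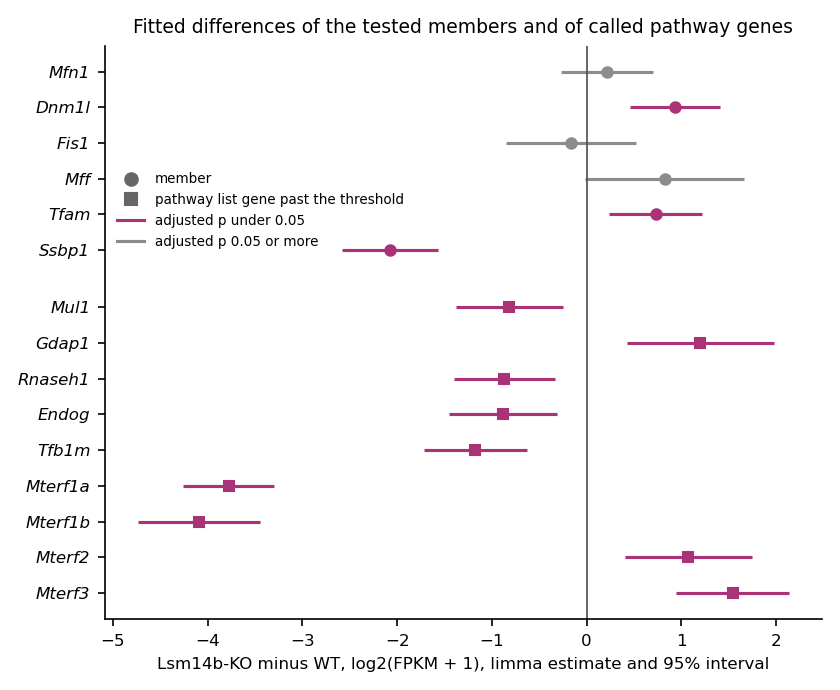
Fitted Lsm14b-KO minus WT differences on the log2(FPKM + 1) scale (x axis, with 95% intervals) for the 6 tested members (circles) and the 9 pathway list genes past the threshold (squares). Coloured symbols have an adjusted p under 0.05. The largest differences were those of Mterf1b and Mterf1a, at -4.10 and -3.78, followed by Ssbp1 at -2.07.

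In the mitochondrial transcription list, genes lay on both sides of WT. Of its 9 genes 7 were tested, 2 were higher and 3 were lower. The MTERF proteins bind mitochondrial nucleic acids and were named after transcription termination. Mterf1a was at 31.7, 27.9 and 26.2 FPKM in WT and 1.21, 1.07 and 1.17 in Lsm14b-KO (log2 difference -3.78, SE 0.21, adjusted p = 0.00027, limma). Mterf1b was at 35.3, 34.1 and 27.9 in WT and 1.72, 0.473 and 0.840 in Lsm14b-KO (-4.10, SE 0.28, adjusted p = 0.00054, limma). No Lsm14b-KO library came near WT in either gene. The transcripts are 98.6% identical over 1368 bases, so reads may be split between them and they do not count as separate observations.

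Mterf3, which represses mitochondrial transcription and aids ribosome assembly, moved the other way, from 0.830, 1.63 and 1.20 FPKM in WT to 7.59, 4.04 and 5.01 in Lsm14b-KO (log2 difference 1.54, SE 0.26, adjusted p = 0.00762, limma). Mterf2 was at 1.56, 0.509 and 0.375 in WT and 3.64, 2 and 2.58 in Lsm14b-KO (1.08, adjusted p = 0.0366, limma). Calls for Mterf1a, Mterf1b and Mterf3 held in all 17 alternative settings, while that for Mterf2 was lost without the filter and without WT2, WT3 or KO3. Mterf3 is overlapped by Ptdss1 and Gm10767 and Mterf2 by Tmem263, all on the other strand.

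Tfb1m, a methyltransferase of mitochondrial ribosomal RNA related to the transcription factor TFB2M, was at 15.1, 15.8 and 17 FPKM in WT and 8.12, 5.46 and 6.25 in Lsm14b-KO. All Lsm14b-KO libraries lay below WT, with a log2 difference of -1.17 (SE 0.24, adjusted p = 0.0146, limma). The call was lost under scaling to a common total and when WT1, WT2, WT3 or KO3 was left out. Tiam2 and Cldn20 overlap Tfb1m on the other strand. Tefm and Mterf4, the other tested genes of the list, were not called. Polrmt, the RNA polymerase of mitochondria, and Tfb2m, its partner at promoters, stayed below 1 FPKM in every library.

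**Figure D4:**
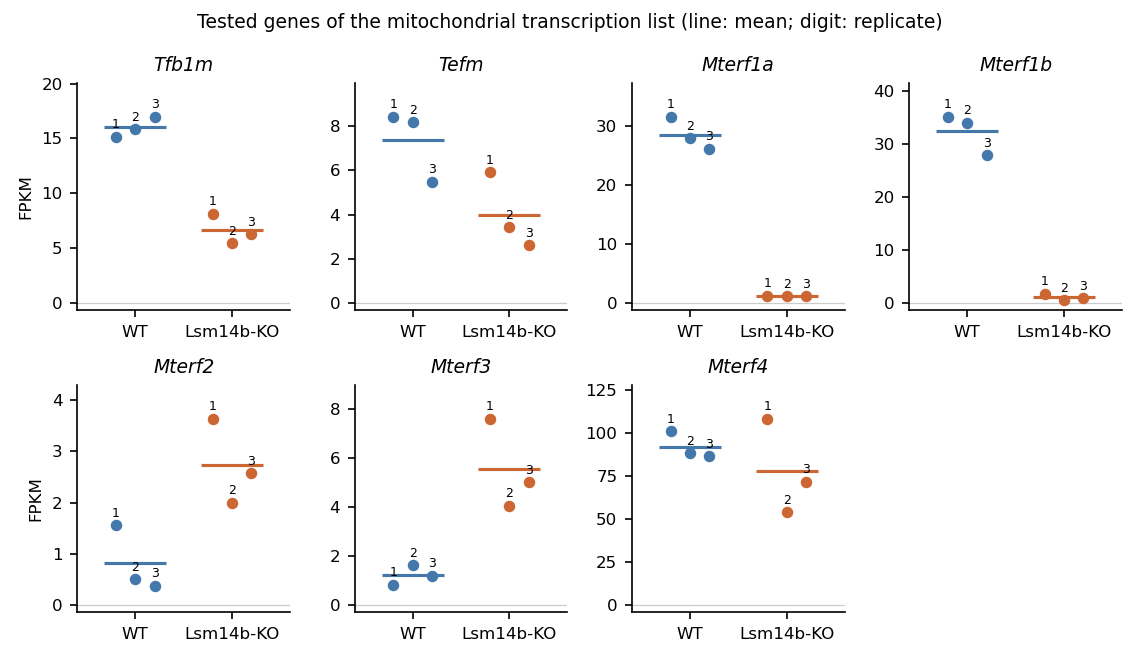
FPKM (y axis, starting at 0 and scaled to each gene) of the 7 tested genes of the mitochondrial transcription list in the WT (blue) and Lsm14b-KO (orange) libraries, with a point for each library and a line at the group mean. Mterf1a and Mterf1b were at 26.2 to 35.3 in WT and 0.473 to 1.72 in Lsm14b-KO, Tfb1m was lower, Mterf2 and Mterf3 were higher, and Tefm and Mterf4 overlapped.

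Of the 14 genes of fusion and inner membrane shaping, 7 were tested and 1 was lower. Mul1, an outer-membrane ubiquitin ligase that acts on mitofusins and DRP1, was at 2.54, 1.08 and 1.48 FPKM in WT and 0.711, 0.373 and 0.435 in Lsm14b-KO (log2 difference -0.81, SE 0.25, adjusted p = 0.0496, limma). It reached 1 FPKM in WT only, and 10 of 17 alternatives put its adjusted p above 0.05. The best expressed genes of this list were Phb and Chchd3, a scaffold protein and a component of cristae junctions. Phb was at 5.88 to 7.08 in WT and 4.44 to 6.03 in Lsm14b-KO (adjusted p = 0.319, limma) and Chchd3 at 5.28 to 5.63 and 6.14 to 7.21 (adjusted p = 0.419, limma).

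Of 10 fission adaptors and regulators in the table, 6 were tested and 1 was higher. Gdap1, an outer-membrane protein whose excess fragments mitochondria, was at 5.07, 4.63 and 4.80 FPKM in WT and 7.38, 20.0 and 12.7 in Lsm14b-KO. KO1 lay nearest to WT and KO2 farthest, the same order as in Mff and in the correlations across all genes given above. The log2 difference of Gdap1 was 1.20 (SE 0.34, adjusted p = 0.0411, limma), and the call was lost in 6 of 17 alternatives. Spire1, an actin nucleator also needed for spindle positioning in the oocyte, was at 6.98 to 9.27 in WT and 4.97 to 15.2 in Lsm14b-KO, and was not called (adjusted p = 0.664, limma).

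Of 14 genes of mitochondrial DNA replication and repair, 5 were tested and 2 were lower. Rnaseh1, which removes RNA from RNA-DNA hybrids such as replication primers, was at 4.46, 5.83 and 6.45 FPKM in WT and 3.16, 2.75 and 1.93 in Lsm14b-KO (log2 difference -0.87, SE 0.23, adjusted p = 0.0349, limma). Endog, a mitochondrial nuclease, was at 0.802, 0.583 and 1.62 in WT and listed at 0.0001, 0 and 0.191 in Lsm14b-KO (-0.88, SE 0.25, adjusted p = 0.04, limma), on about 10 fragments in all WT libraries. Endog passed the filter through WT only and overlaps Spout1. These calls were lost in 11 of 17 alternatives for Rnaseh1 and 8 of 15 for Endog. Peo1, the helicase that works beside POLG, was at 1.16 to 1.37 in WT and 0.941 to 1.37 in Lsm14b-KO (adjusted p = 0.816, limma). Polg2, the accessory subunit of the polymerase, stayed below 1 FPKM throughout.

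None of the 12 tested genes in the 4 remaining lists passed the threshold in limma. For RNA handling and nucleoid proteolysis, 0 of 5 tested genes passed, with Slirp at 21.2 to 34.6 FPKM in WT and 6.03 to 23.3 in Lsm14b-KO (adjusted p = 0.0936, limma) and Grsf1 at 1.58 to 3.38 and 3.50 to 4.01. For nucleotide supply, 0 of 5 passed, with Rrm2b, a subunit of the reductase that makes deoxynucleotides outside S phase, at 3.95 to 4.49 and 5.36 to 6.57 (adjusted p = 0.153, limma) and Sucla2 at 3.00 to 4.89 and 2.56 to 5.33. At an unadjusted p under 0.05, 2 genes of each of these lists passed, against 2518 of all 6398 tested genes, and 0 of the single tested genes of motility and biogenesis. The motility adaptor Rhot1 was at 2.14 to 4.04 in WT and 2.83 to 4.06 in Lsm14b-KO (adjusted p = 0.725, limma).

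Among 8 regulators of mitochondrial biogenesis only Gabpb1, the partner of GABPA, was tested, at 0.874, 1.49 and 3.25 FPKM in WT and 1.6, 2.09 and 4.06 in Lsm14b-KO (adjusted p = 0.486, limma). Gabpa, whose product binds the ETS core shown above, was listed at 0 in all WT libraries and at 0.281, 0.246 and 0.197 in Lsm14b-KO. It is named after its values were seen and because of that motif, and it stood on 7 to 9 fragments in each Lsm14b-KO library. The pattern was not particular to Gabpa. Polg2 and Rhot2, of other lists, were also listed at 0 in all WT libraries. They were at 0.0987 to 0.297 and 0.0453 to 0.297 FPKM in Lsm14b-KO, on about 1 to 3 and 1 to 6 fragments in each library. Nrf1, whose motif was also searched, did not reach 1 FPKM either and was at 0.436, 0.953 and 0.880 in WT and 0.101, 0.559 and 0.402 in Lsm14b-KO, with overlapping ranges. Ppargc1a, the coactivator known for driving mitochondrial biogenesis in muscle and brown fat, was below 1 FPKM in every library.

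The genes whose profiles over the 6 libraries were most like those of the called members were found by the root mean square difference of centred log2(FPKM + 1) values among about 2560 genes with a mean of at least 5 FPKM. For Dnm1l these were Olfr976, an olfactory receptor gene (0.11), and Cd36, a fatty acid transporter (0.13), with log2 differences of 1.1 and 1.12. For Tfam they were Atp6v1g1 (0.052), a proton pump subunit, and Gspt2 (0.071), a translation termination factor. For Ssbp1 they were Trappc5 (0.16), at 39.4 to 43.0 FPKM in WT and 9.37 to 10.5 in Lsm14b-KO, and H2-T10 (0.18). The likeness is on the log2(FPKM + 1) scale, which understates the change of low genes. It does not extend to the fold changes of Tfam and Ssbp1. Per unit of depth, Lsm14b-KO had 8.84 times the fragments of WT for Tfam. The log2 differences of Atp6v1g1 and Gspt2, at higher levels, were 0.74 and 0.77. For Ssbp1, WT had 26.9 times the fragments of Lsm14b-KO per unit of depth, a larger change than that of Trappc5.

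**Figure D5:**
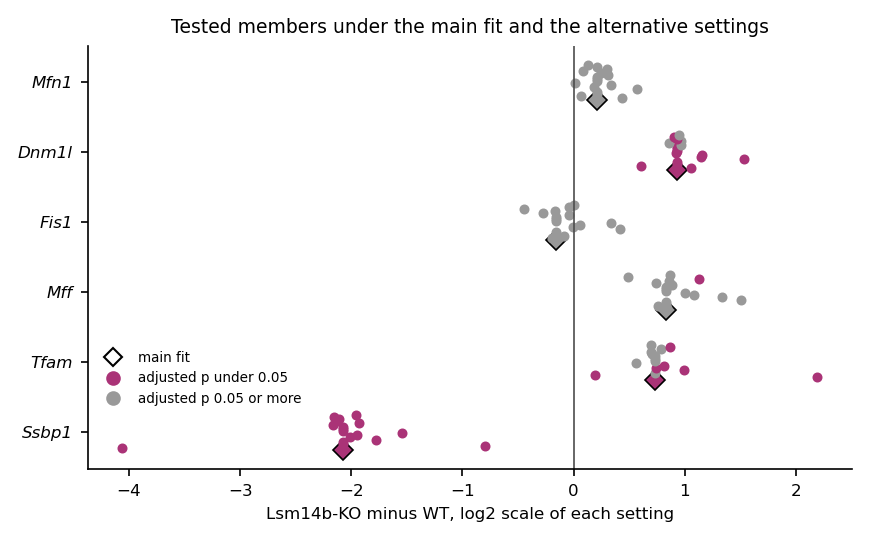
Fitted Lsm14b-KO minus WT differences (x axis, log2 scale of each setting) of the 6 tested members under the main fit (diamonds) and each alternative setting (circles), coloured where the adjusted p was under 0.05. Ssbp1 was below 0 and called in every setting, Dnm1l and Tfam were above 0 in every setting that tested them but not always called, and Fis1 fell on both sides of 0.

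The direction of Dnm1l, Tfam and Ssbp1 was the same under each scaling tried. Scaling to a common total of FPKM moved the median of all genes up by 0.47 on the log2 scale. Relative to that shift, the difference of 1.54 for Dnm1l remained above the median gene, as did 0.99 for Tfam, while Ssbp1 was at -1.78. The share of called genes that were higher in Lsm14b-KO was 29.5% in the main fit and 63.2% under that scaling, so the 6.38% and 15.2% given above depend on it.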

How the data were processed

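Total RNA of 20 GV-stage FGOs per library (3 WT, 3 Lsm14b-KO) was turned into libraries by the Smart-seq2 procedure and read from both ends for 150 bp. The labels name different library kits in different places and do not state strandedness. The authors aligned trimmed reads to mm10 with TopHat2 2.0.13 and deposited FPKM values computed with Cufflinks 2.2.1, 1 column per library. Another 3 columns hold the authors' own comparison (fold change, p and q) and were not used. A spreadsheet had turned 27 symbols into dates, and 1 listed gene, Marchf5, was not found.

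Genes at 1 FPKM or more in at least 1 library were tested on log2(FPKM + 1) with limma 3.58.1 (R 4.3.3, two-sided, trended prior variance, Benjamini-Hochberg adjustment, threshold 0.05). FPKM keeps no counts. Fragments were estimated by dividing FPKM by the value of 1 fragment, read from genes within 10% of the transcript's length, and served only as a description of depth. Ratios of their sums have 95% Clopper-Pearson intervals. Ratios within a library were compared by exact permutation. Loci and transcripts came from GENCODE vM21 (GRCm38), and copies were sought with blastn 2.17.0 (at least 95% identity over 200 bases).

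Members and lists were chosen with earlier results of these data known. Named genes were the 9 members, Lsm14b, each list gene past the threshold, the 2 best expressed tested genes of a list where fewer than 2 passed, and the 2 genes most like each called member. Peo1, Polg2, Rhot2, Polrmt, Tfb2m, Tefm, Mterf4, Gabpa, Nrf1 and Ppargc1a fall outside this rule and were named after their values were seen. So were Mief1, Lig3, Clpx, Clpp and Tk2, which are named for the genotype through which they entered the test. Alternatives were other pseudocounts, filters, scalings, variance models, a replicate block and omission of each library.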

Additional observations from a re-analysis of the deposited data

How the results depend on the processing

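With 3 libraries per genotype, calls depended on single libraries. Leaving out 1 library at a time gave 1 to 4 called members (1 without WT1, WT2, WT3 or KO3), 3 to 16 called list genes and 321 to 2952 called genes in all, the highest values each without KO1. Without KO1, 4 of 6 members, 16 of 36 list genes and 2952 of all 6280 tested genes were called. Without KO3, these were 1 of 6, 3 of 35 and 321 of 6338. The counts are therefore not evidence about the members or the lists. Without the filter, 720 of 14325 genes and 5 of 73 list genes were called. In other settings the count of called members was 2 or 3. Replicate numbers did not pair the libraries (correlation of same-numbered deviations 0.19, -0.128 and 0.018). A fit with the replicate block called 2 of 6 members, 8 of 37 list genes and 1244 of all 6398 tested genes. Under that block Tfam lost its call (adjusted p = 0.0727). Fis1 changed sign under scaling to a common total (0.41), median centring (0.058), the length and GC correction (0.34) and without KO3 (0.006), with omissions giving -0.45 to 0.006. Dnm1l over Mff turned negative without KO1, and the log2 ratio of Mfn1 over Mfn2 was 0.28 with a pseudocount of 1 against 1.38 without. Over the omissions the log2 ratios ran from 0.807 to 1.91 for Mfn1 over Mfn2, 0.566 to 1.70 for Mff over Fis1, -0.076 to 0.546 for Dnm1l over Mff and 0.704 to 1.33 for Dnm1l over Opa1. Of the 6 tested members, Ssbp1, Dnm1l, Mff and Mfn1 kept their direction in all 17 alternatives and Tfam in the 15 that tested it, and Ssbp1 also kept its call in all 17. Quantile normalization and median centring gave 42.4% and 48.1% of called genes as higher, and the length and GC correction gave 45%. The causes of these changes were not tested. Values on fewer than about 5 fragments, as for Mfn2, Tfam in WT, Polg in WT and Ssbp1 in Lsm14b-KO, limit what can be said of those genes.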
